A study of Mus musculus with 2 samples.

Results

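One-to-one pairs of ATAC-seq peaks that were wider in the treatment library than in the control library were examined in mouse CD8+ T cells, 1207 of 54264 pairs on chromosomes 1 to 19. ATAC-seq inserts sequencing adapters into open DNA with a transposase, and a peak is an interval where the inserted reads pile up over their local background. A pair was a treatment interval and a control interval that overlapped each other and no other interval of the opposite list, with summits within 150 bp. Members were chosen by the width of the treatment interval divided by that of the control interval: 1.5 or more made a pair wider, and 0.67 or less made a pair narrower, which 8024 pairs were. So widths, and every other measure taken from these intervals, are given as a description and are not tested. The series holds 2 libraries, 1 titled treatment and 1 titled control, both made from T cells with a commercial ATAC-seq kit. Its title speaks of the chromatin landscape of Peml-1 CD8+ T cells. Apart from the word Peml-1 in that title, the labels name no agent, strain, age or genotype. Another field reads "Combined treatment" for the library titled treatment and "Treatment" for the library titled control, so only the titles set the groups. No library has a replicate, so each statement is about these libraries and not about the conditions.

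The width of an accessible interval depends on the nucleosome-free stretch beneath it, on how far reads spread over the flanking nucleosomes and on how many reads lift the edges over the caller's threshold. Promoters usually carry broad, strong intervals shared by many cell types, while enhancers in introns and between genes carry narrower ones that differ more between cell states. In CD8+ T cells, the enhancers of Tcf7, Lef1, Il7r and Bach2 are used in naive and memory cells, and those of effector genes open after activation.

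The labelled cell type was checked on the gene ends of defining genes. All 10 T cell genes examined, among them Cd3e, Cd8a and Cd8b1, had a gene-end peak in both libraries. Of 12 genes of other cell types, 4 had one in treatment (Cd4, Itgam, Col1a1 and Pmel) and 6 in control (the same 4, Csf1r and Lyz2). Cd79a, Ms4a1, Ncr1, Hbb-bt and Tyr were among those with none in either library. The part of other cells in the results was not tested.

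Sequence was at hand for RefSeq promoters of GRCm38.p6, the assembly of mm10, and 16 of them were touched by a wider pair within the 250 bases before the listed transcription start. The following 4 are printed 5′ to 3′ on the gene's own strand, to show where a treatment interval reached farther at a start. Capitals mark the bases that lay inside the treatment interval and outside the control interval. Ache encodes acetylcholinesterase (chr5:137288004-137288253, plus strand), and Gm128 (chr3:95241110-95241359, minus strand) is a predicted gene. They had the most such bases, 243 and 194. Ccm2 encodes a scaffold of the cerebral cavernous malformation complex (chr11:6559933-6560182, plus strand) and had 116. Pik3cd encodes the catalytic subunit of the leukocyte kinase PI3K delta (chr4:149676090-149676339, minus strand) and had 22. Ccm2 and Pik3cd were chosen after their values were seen. Not all 16 starts were like these. The control interval held more of the 250 bases at Slc23a3 (170, against 0 in treatment), Pyroxd2 (246 and 201), Prr29 (241 and 207) and Art3 (250 and 245). At Cym, Septin9 and Shcbp1l both intervals held all 250.
Ache: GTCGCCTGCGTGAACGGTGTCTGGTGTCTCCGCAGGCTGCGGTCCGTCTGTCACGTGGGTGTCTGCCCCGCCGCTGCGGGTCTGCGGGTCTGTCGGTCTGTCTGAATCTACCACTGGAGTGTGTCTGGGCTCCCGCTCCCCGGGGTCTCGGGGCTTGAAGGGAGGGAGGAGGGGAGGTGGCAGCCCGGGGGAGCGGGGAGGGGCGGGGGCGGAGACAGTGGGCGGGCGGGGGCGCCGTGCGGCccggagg
Gm128: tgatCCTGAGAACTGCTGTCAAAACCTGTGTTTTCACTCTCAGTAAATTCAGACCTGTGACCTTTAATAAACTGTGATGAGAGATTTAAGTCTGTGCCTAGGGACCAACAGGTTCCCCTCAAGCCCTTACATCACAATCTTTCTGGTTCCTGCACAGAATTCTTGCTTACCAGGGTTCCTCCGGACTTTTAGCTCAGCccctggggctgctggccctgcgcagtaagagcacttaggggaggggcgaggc
Ccm2: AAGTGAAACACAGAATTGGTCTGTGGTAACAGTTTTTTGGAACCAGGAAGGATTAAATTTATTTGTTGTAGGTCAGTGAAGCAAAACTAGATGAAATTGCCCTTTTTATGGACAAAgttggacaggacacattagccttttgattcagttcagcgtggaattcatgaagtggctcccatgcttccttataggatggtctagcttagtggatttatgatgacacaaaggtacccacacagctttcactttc
Pik3cd: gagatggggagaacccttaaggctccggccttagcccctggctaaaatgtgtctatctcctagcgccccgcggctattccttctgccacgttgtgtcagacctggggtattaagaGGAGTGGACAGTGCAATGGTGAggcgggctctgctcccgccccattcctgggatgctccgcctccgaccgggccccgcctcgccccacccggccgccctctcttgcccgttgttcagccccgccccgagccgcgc

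At Ache the treatment interval was 563 bp and the control interval 336 bp wide, with summit coverages of 91 and 162 reads. It took in all 250 printed bases, of which the control interval held 7. At Gm128 the widths were 582 bp in treatment and 232 bp in control, with coverages of 88 and 58 reads. At Ccm2 they were 427 and 261 bp, with 513 and 464 reads, and at Pik3cd 568 and 344 bp, with 110 and 106 reads. The extra bases of Ache lay on the upstream side of a summit that was lower in treatment, while at the other 3 starts the summit was higher in treatment. The printed window of Ache held 25 CpG dinucleotides, that of Pik3cd 19, that of Gm128 3 and that of Ccm2 1.

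CpG content and a few motifs of the 16 promoters are given as a description. The median number of CpG dinucleotides in the 250 bases was 6 in the 16 promoters of wider pairs, 14 in 600 promoters of narrower pairs, 17 in 10700 promoters of any pair and 10 in all 20085 listed promoters. Motifs were counted on both strands and could overlap. TGTGGT, a core site of RUNX factors, stood in 3 of 16, against 11.3% of the narrower group's promoters and 12.2% of all listed promoters. CGGAAG, a core of ETS sites, stood in 2 of 16, against 16.7% and 17.5%. TGANTCA, the AP-1 site, stood in 1 of 16, against 4.83% and 6.18%, and CTTTGAT, a TCF/LEF core, in 0 of 16, against 2.83% and 2.85%. The KLF and SP factor site GGGCGGG stood in 6 of 16, against 42.2% and 31.7%. These are counts over 16 promoters only, and none is read as higher or lower.

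Wider pairs had small control intervals. The median widths of these pairs were 509 bp in treatment and 263 bp in control. Over all pairs the medians were 551 bp in treatment and 642 bp in control. Narrower pairs were the reverse, with medians of 301 bp in treatment and 592 bp in control. Wider pairs made up 2.22% of the one-to-one pairs (95% Wilson interval 2.10 to 2.35%) and narrower pairs 14.8%, so there were 6.65 narrower pairs for each wider one. This lean runs through the whole list: the median width ratio was 0.911, and 20.7% of pairs were wider in treatment by any amount. The narrowest deposited interval was 186 bp in treatment and 176 bp in control. In 55.2% of the wider pairs the control interval was under 1.5 times the narrowest treatment width, against 5.71% of all pairs.

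**Figure D1:**
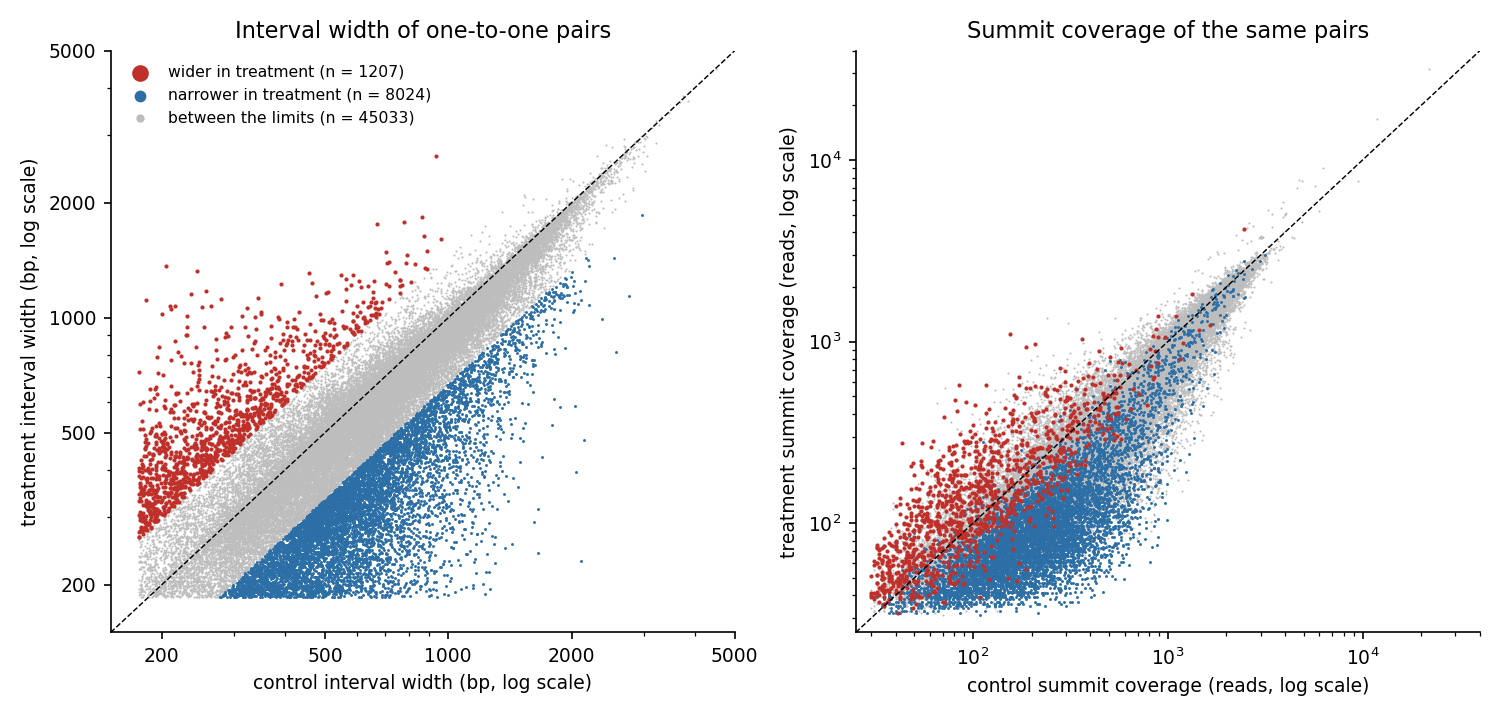
Width in bp (left) and summit coverage in reads (right) of each one-to-one pair, treatment on the vertical and control on the horizontal axis, both log scales, with the line of equality dashed. The 1207 wider pairs (red) sit at control widths of 176 to 961 bp and straddle the line of equal coverage, while the 8024 narrower pairs (blue) lie mostly below it.

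Most wider pairs extended at both edges, since the treatment interval reached past the control interval on both sides in 75.4% (72.9 to 77.7%) of them. In 55.3% of them 1 edge held at least 80% of the added bases, fewer than the 77.4% of all 11250 pairs wider in treatment by any amount. The treatment interval was wider by a median of 227 bp, with a range of 90 to 1714 bp. In 93.9% of narrower pairs the treatment interval lay inside the control interval at both edges. In 37.1% of them 1 edge held at least 80% of the bases missing in treatment, against 54.4% of all 42650 pairs narrower by any amount. The summits were close, with a median distance of 10 bp in wider and 7 bp in narrower pairs. Another control interval stood within 300 bp of the control interval in 1.08% (0.631 to 1.83%) of wider, 3.18% (2.82 to 3.58%) of narrower and 2.71% of all pairs. Measured from the treatment interval, whose reach the choice of members fixes, it was 4.23% of wider, 0.474% of narrower and 1.97% of all pairs.

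Both libraries contributed to the ratio. Set against the usual width of intervals of the same summit coverage in the same library, the treatment interval of a wider pair was 1.19 times as wide in the median, and the control interval 0.672 times. The treatment interval was above its usual width in 66.2% of wider pairs and the control interval below its own in 85.3%. These shares follow from the choice of members and are given as a description.

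Summit coverage, recovered from the deposited fold enrichment and p-value, was modest at wider pairs. Its median was 132 reads in treatment and 98 reads in control, against 214 and 352 reads over all pairs and 83 and 217 reads in narrower pairs. The ratio of treatment to control coverage had a median of 1.27 in wider pairs, 0.450 in narrower pairs and 0.702 over all pairs. Coverage was higher in treatment in 69.8% (67.2 to 72.4%) of wider pairs, in 1.88% of narrower pairs and in 14.3% of all pairs. Width and height were thus both larger in treatment in most wider pairs, but not in all. In 407 wider pairs, 33.7% (31.1 to 36.4%), the higher coverage was at most 25% above the lower one. The same held for 31.1% of all pairs and 7.17% of narrower pairs. Among those 407 the median coverage was 107 reads in treatment and 112 reads in control, and the median widths were 478 and 261 bp.

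Wider pairs were rarely at gene ends. A gene end was taken as within 1 kb of a listed transcription start, or of either end of the span for genes with no listed start, and 79.6% of 20665 protein-coding genes had one. The control summit lay there in 35 of 1207 wider pairs, 2.90% (2.09 to 4.01%), in 9.95% (9.31 to 10.6%) of narrower pairs and in 20.9% (20.6 to 21.3%) of all pairs. Gene bodies held 59.2% (56.4 to 61.9%) of wider pairs, 47.9% (46.8 to 48.95%) of narrower pairs and 43.7% of all pairs. Between genes lay 37.9% (35.3 to 40.7%) of wider, 42.2% (41.1 to 43.3%) of narrower and 35.4% (34.99 to 35.8%) of all pairs. The intervals of wider and narrower pairs did not overlap for any of the 3 places, but between genes the wider interval overlapped that of all pairs. They cover counting error only.

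Peak strength differs by place, so the gene-end share was also read within bands of the higher of the 2 summit coverages. Under 100 reads it was 4.09% (2.53 to 6.54%) in wider, 12.6% (10.6 to 14.8%) in narrower and 6.57% in all pairs. From 100 to under 200 reads it was 2.04%, 9.55% and 6.70%, and from 200 to under 400 reads 1.81%, 6.67% and 7.99%. At 400 reads or more it was 4.05% (1.87 to 8.56%) in wider, 14.6% (13.0 to 16.4%) in narrower and 36.7% in all pairs. In each of the 4 bands the wider share was below the narrower share, with Wilson intervals that did not overlap. Members were chosen by width, and the bands do not match control width, which had medians of 263 bp in wider and 592 bp in narrower pairs. What part control width has in the gene-end shares was not tested.

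**Figure D2:**
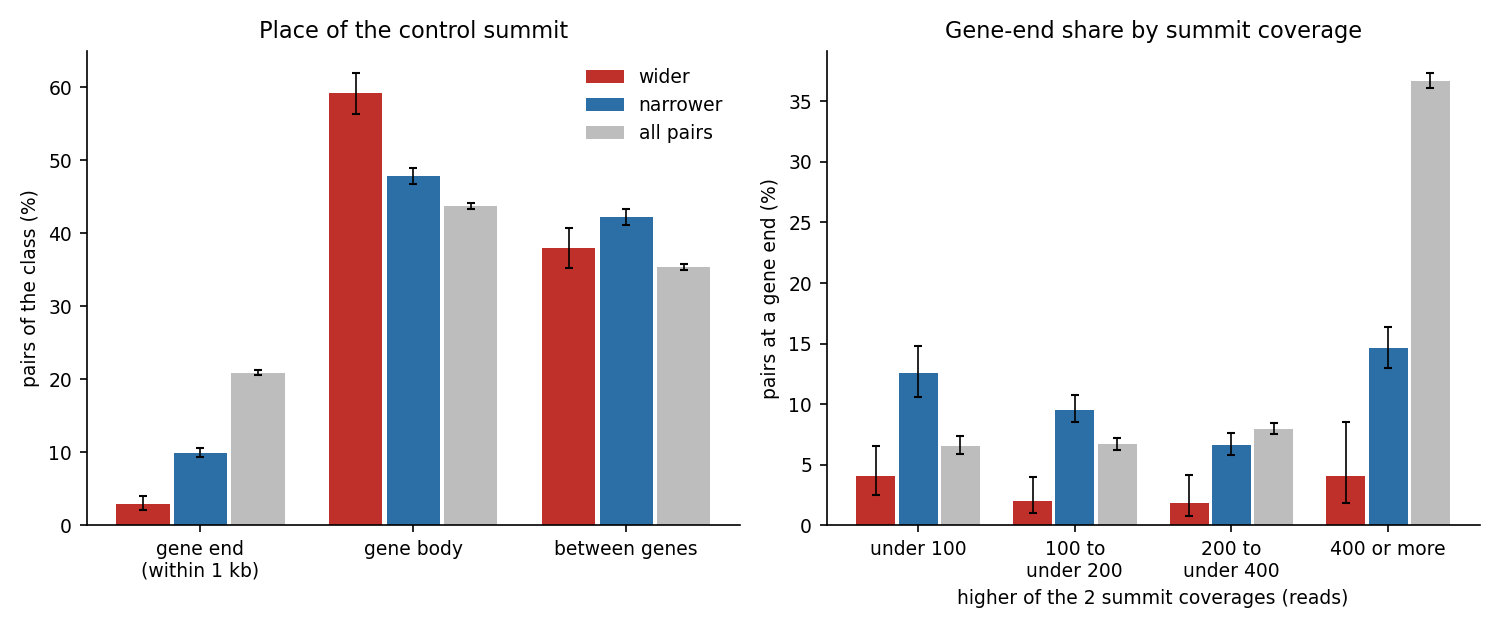
Left, percent of wider, narrower and all one-to-one pairs by where the control summit lay (gene ends, gene bodies, space between genes). Right, percent at a gene end within bands of the higher summit coverage. Bars are shares and whiskers 95% Wilson intervals. The wider pairs have the lowest gene-end share in each band, from 1.81 to 4.09%.

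Farther than 20 kb from gene ends, both classes had larger shares than all pairs, and wider pairs the largest. The control summit was 1 to 5 kb from the nearest gene end in 10.5% of wider, 11.3% of narrower and 10.5% of all pairs, and 5 to 20 kb away in 29.99%, 29.5% and 27.4%. It was 20 to 100 kb away in 41.5% (38.8 to 44.3%) of wider, 37.3% (36.2 to 38.3%) of narrower and 31.9% of all pairs. Beyond 100 kb lay 15.1% (13.2 to 17.2%) of wider, 12.0% (11.3 to 12.7%) of narrower and 9.25% of all pairs. Of pairs outside genes, the median distance to the nearest gene was 19379.5 bp for wider pairs (95% order-statistic interval 15529 to 22478 bp) and 15774.5 bp for narrower pairs (14551 to 16934 bp), and these intervals overlapped. Between genes and more than 100 kb from any gene lay 76 wider pairs, 6.30% of all wider pairs (5.06 to 7.81%). The same held for 5.94% of all narrower pairs and 4.56% of all pairs.

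The 10 pairs of highest width ratio, from 4.39 to 6.68, included intervals near an immune receptor and an immune ligand. Coordinates are those of mm10 and of the treatment interval, unless stated. The first (chromosome 3, 157441065 to 157442434) lay 92855 bp from Zranb2, an RNA-binding splicing protein, with widths of 1370 bp in treatment and 205 bp in control. It had only 71 and 33 reads at its summits. At 8894 bp from Cd86, which encodes a costimulatory ligand of antigen-presenting cells (chromosome 16, 36674466 to 36675576), the widths were 1111 bp in treatment and 183 bp in control (ratio 6.07), with 222 and 130 reads. At 10518 bp from Cxcr4, which encodes a chemokine receptor for bone marrow homing, the treatment interval (chromosome 1, 128602160 to 128603313) was 1154 bp wide and the control interval 236 bp (ratio 4.89). Its coverage was 478 reads in treatment and 81 reads in control, the highest treatment coverage of the 10, and its local background was 61.5 and 36.3 reads. The other 7 lay in Cryz and Ldlrad3 or outside Klf14, Apba2, Atp1b3, Galr1 and Gm15319, with 56 to 122 reads in treatment and 32 to 84 in control. At Klf14 the coverage was 84 reads in each library.

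The 10 wider pairs with the widest treatment intervals, 1398 to 2650 bp, lay mostly in gene bodies. The interval in Tcf7, which encodes TCF1, a factor that maintains naive and memory T cells, was 1781 bp wide in treatment (chromosome 11, 52249530 to 52251310) and 782 bp in control (52249364 to 52250145). The treatment interval reached 1165 bp farther at its higher-coordinate edge and ended 166 bp short of the control interval at the other. Its summit held 151 reads in treatment and 114 reads in control, and the local background was 37.4 and 19.9 reads. In Bach2, a repressor that restrains effector differentiation, an interval (chromosome 4, 32263300 to 32264762) measured 1463 bp in treatment and 792 bp in control, with 263 and 245 reads. Intervals in Scml4, a Polycomb-related gene, and Prr5l, an mTORC2-associated gene, were strong in both libraries. Scml4 had 1381 reads in treatment and 1108 in control, with widths of 1635 and 874 bp, and Prr5l had 1177 and 870 reads, with widths of 1604 and 961 bp. The widest of all, 2650 bp in treatment and 936 bp in control, lay 57697 bp from Gm21119 (chromosome 8, 20703428 to 20706077) with 79 and 40 reads. The other 5 were in Eppk1, Kctd20 and Resf1, near Apba2 and near Clint1.

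The wider pairs of highest control fold enrichment, 19.7 to 32.8, were strong in both libraries. The first, 90889 bp from B230307C23Rik (chromosome 16, 98107289 to 98107766), had a fold enrichment of 28.2 in treatment and 32.8 in control, 891 and 860 reads, and widths of 478 and 256 bp. In Nfat5, a transcription factor of the osmotic stress response (chromosome 8, 107323582 to 107324452), widths were 871 bp in treatment and 415 bp in control, with 425 and 433 reads. In Foxp1, a forkhead factor that keeps naive T cells quiescent, they were 937 and 526 bp, with 550 and 663 reads. In Thada they were 923 and 613 bp, with 1379 and 891 reads. The other 6 lay in Srgap2 and Sp4 and nearest to Tyrp1, Mindy3, Whrn and Nck2, with width ratios of 1.53 to 2.28. The width ratio thus reached 1.5 also at control summits of 313 to 891 reads.

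Wider pairs were frequent at the loci of naive and memory genes. Of 230 one-to-one pairs within 10 kb of the 20 genes of that list, 17 were wider, 7.39% (4.67 to 11.5%), against 2.14% (2.01 to 2.28%) at the loci of all protein-coding genes. Narrower pairs made up 6.52% (3.99 to 10.5%) there, against 13.8% (13.5 to 14.2%) at all loci. The median width ratio at these loci was 0.989, against 0.914, and the median ratio of summit coverage 0.914, against 0.717. Leaving out each gene in turn gave 6.82 to 7.91% wider. Of the 17 pairs, 10 had a higher coverage at most 25% above the lower one, against 324 of 904 wider pairs at all loci. With the control list reduced to the length of the treatment list, 2.75% (1.18 to 6.27%) of pairs at these loci were wider, an interval that included the 1.27% of all pairs, so under that setting the higher share at these loci was lost within counting error. Pairs at 1 locus share their source, which the intervals do not take into account.

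These 17 pairs fell to 9 genes, with 3 each to Bach2, Foxp1 and Bcl2, 2 to Foxo1 and 1 each to Tcf7, Lef1, Il7r and Klf2 among them. In Bcl2, which encodes a survival protein, an interval (chromosome 1, 106636507 to 106637409) was 903 bp wide in treatment and 231 bp in control (ratio 3.91), with 132 and 51 reads. Just outside Klf2, which encodes a quiescence and trafficking factor (chromosome 8, 72321730 to 72322954), it was 1225 and 391 bp (3.13), with 772 and 555 reads, and the treatment interval reached 438 bp and 396 bp farther at its edges. The local background there was 297 reads in treatment and 192 reads in control. In Bach2 the pair of highest ratio (chromosome 4, 32394571 to 32395214) measured 644 bp in treatment and 263 bp in control (2.45), with 200 and 98 reads. The pair at Il7r, which encodes the receptor chain for IL-7, was chosen after its values were seen. It lay 3586 bp outside the gene (chromosome 15, 9533218 to 9533898 in treatment), with 1103 reads in treatment and 154 in control and widths of 681 and 383 bp. Its background was 134 reads in treatment and 37.8 in control. Narrower pairs also lay at several of the 9 genes, 4 at Bcl2 and 2 each at Lef1, Bach2 and Foxp1. Tcf7 and Foxo1 had 1 narrower pair each. Slamf6, Ltb and Bcl6 had 1 narrower pair each and no wider pair. Of the list genes 45% had a wider and 45% a narrower pair, against 4.69% and 26.5% of all protein-coding genes. The list held 230 pairs at 20 genes, and all protein-coding genes 42205 pairs at 20665. A locus with more pairs has more room for either.

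**Figure D3:**
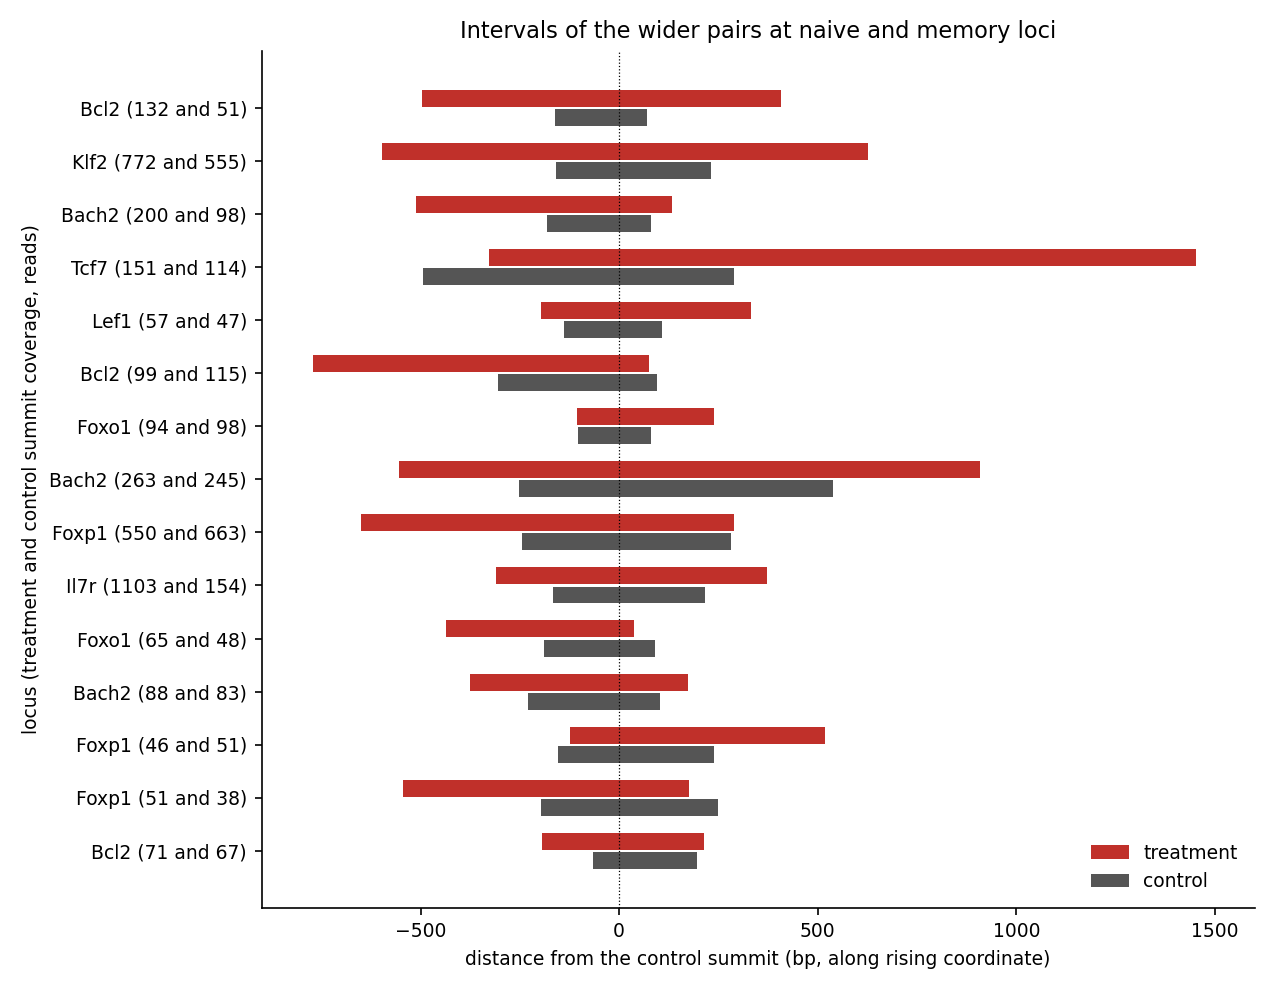
Treatment (red) and control (grey) intervals of 15 of the 17 wider pairs at naive and memory loci, in bp from the control summit, ordered by width ratio, with the treatment and control summit coverage beside each gene. The Tcf7 interval extends 1165 bp beyond its control counterpart on 1 side only, and the Klf2 interval extends on both.

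The share was numerically higher at these loci in every band of coverage. Under 100 reads 22.6% (11.4 to 39.8%) of 31 pairs were wider, against 8.57% at all loci, and from 100 to under 200 reads 15.2% (6.65 to 30.9%) of 33, against 3.90%. From 200 to under 400 reads it was 4.65% (1.28 to 15.5%) of 43, against 1.99%, and at 400 reads or more 2.44% (0.833 to 6.93%) of 123, against 0.566%. In the band of 200 to under 400 reads the interval of the list included the value for all loci. The bands from 200 and from 400 reads held only 2 and 3 wider pairs of the list.

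Effector genes had no wider pair. At their 20 loci 0 of 84 pairs were wider, which allows a share of up to 3.57% (3 counts of the total) and so does not set the list below the 2.14% of all loci. Its narrower share was 13.1% (7.47 to 21.9%, 11 pairs), an interval that included the 13.8% at all loci. Both pairs at Gzma, which encodes granzyme A, were narrower, with a median ratio of 0.440. Single narrower pairs lay at Gzmb, Ifng, Tbx21 and 6 other effector loci. Activation and costimulation genes had 0 wider of 81 pairs, allowing up to 3.70%, and 7 narrower, 4 of them at Nfkb1. Interferon response genes had 0 of 53, allowing up to 5.66%, and 3 narrower.

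Genes of the T cell receptor and of CD8 identity held 8 wider pairs of 220, 3.64% (1.85 to 7.01%), and 30 narrower, 13.6%, close to the 13.8% at all loci. The interval in Cd247, which encodes the CD3 zeta chain (chromosome 1, 165837432 to 165838185), was 754 bp wide in treatment and 245 bp in control (ratio 3.08), with 206 and 48 reads. An interval 6380 bp outside Cd3e was 473 and 182 bp wide (2.60), with 159 and 87 reads, and one in its body 910 and 501 bp (1.82), with 208 and 337 reads. At Ptprc, which encodes CD45, 1 of 20 pairs was wider and 5 were narrower. At Zap70, a kinase of the receptor complex, none was wider and 3 of 6 were narrower.

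Inhibitory receptor and exhaustion genes held 5 wider pairs of 112, 4.46% (1.92 to 10.03%), and 17 narrower, 15.2%, against 13.8% at all loci. The pair in Ikzf2, which encodes the factor Helios (chromosome 1, 69680691 to 69681382), measured 692 bp in treatment and 369 bp in control, with 341 and 304 reads. The one in Ctla4, an inhibitory receptor (chromosome 1, 60910897 to 60911998), measured 1102 and 621 bp, with 374 and 609 reads, so it was wider and lower in treatment. Another wider pair lay 26020 bp outside Ctla4, beyond the 10 kb limit, and was higher in treatment, with 597 and 295 reads. A pair in Nfatc1 measured 394 and 217 bp, with 43 and 49 reads. The pair counted at the Cd244a locus lay in its neighbour Ly9 and measured 1100 bp in treatment and 647 bp in control, with 53 and 36 reads. The Nfatc1 locus had 2 wider and 3 narrower of 16 pairs, and the Ctla4 locus 1 wider and 2 narrower of 6. Pdcd1, Tox and Nt5e had no wider pair and 2 narrower ones each, of 6, 11 and 8 pairs.

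Migration and residency genes had 2 wider pairs of 87. They lay in Ccr9, a gut-homing receptor (820 bp in treatment and 442 bp in control), and in Fyco1 beside Cxcr6 (340 and 226 bp). Cxcr4 is also on this list, but no pair lay within the locus limit. The wider pair 10518 bp outside Cxcr4, with 478 reads in treatment and 81 in control, was thus not counted. Cell cycle genes had 3 wider pairs of 82 and 16 narrower, 19.5% (12.4 to 29.4%), an interval that included the 13.8% at all loci. The wider ones lay in Ccnd3, in Cdk6 (403 bp in treatment and 200 bp in control) and outside Ccnb1 (483 and 290 bp). The Ccnd3 pair, in a G1 cyclin gene used by lymphocytes, (chromosome 17, 47507299 to 47508525) was strong, with 1830 reads in treatment and 1335 in control and widths of 1227 and 706 bp. Markers of other cell types had 2 wider pairs of 46 and 8 narrower. The wider ones were in Itgam (706 bp in treatment and 468 bp in control) and at the gene end of Arhgef1 beside Cd79a (371 and 203 bp). The Wilson intervals of each of these lists and of the identity and inhibitory receptor lists included the share at all loci.

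**Figure D4:**
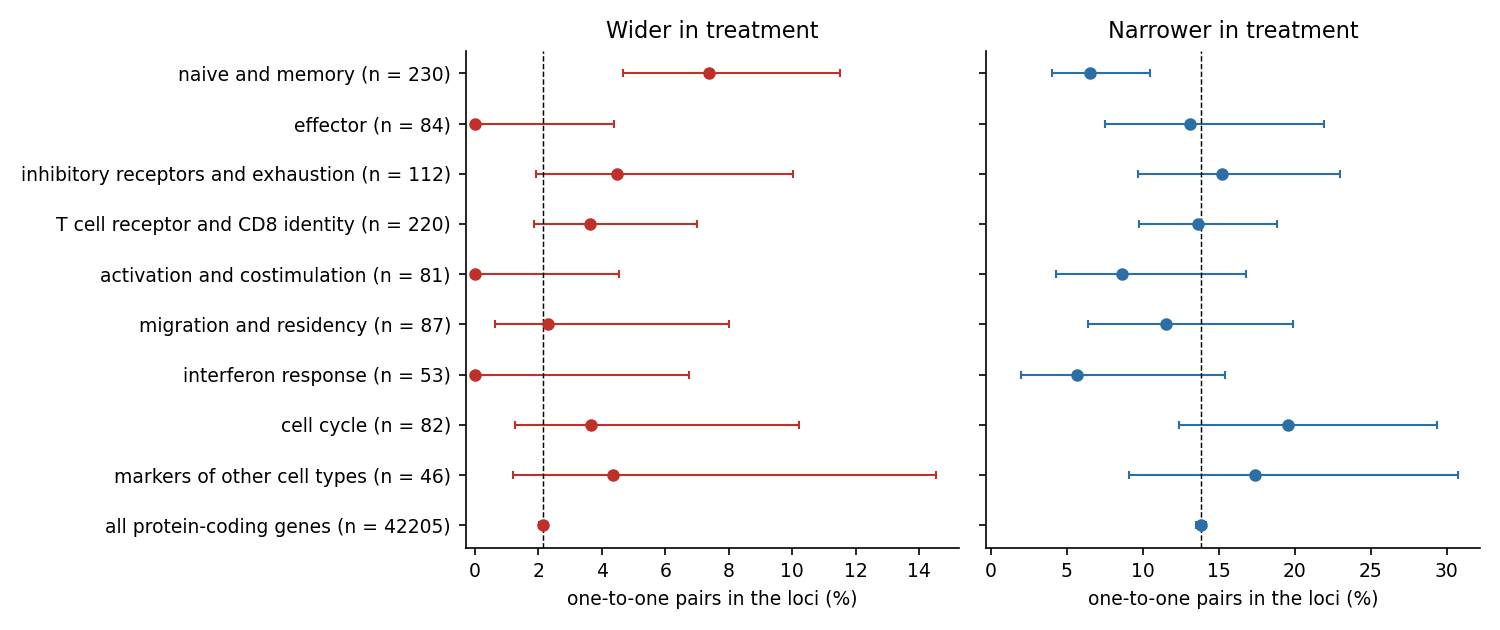
Percent of one-to-one pairs that were wider (left) or narrower (right) in treatment at the loci of each gene list, with 95% Wilson intervals and the number of pairs in brackets. The dashed lines mark the values for all protein-coding loci, 2.14% and 13.8%, and the naive and memory list lies above the first and below the second.

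Wider pairs were spread over 1023 nearest genes, of which 889 had 1 and 31 had 3 or more. Those with most were Akap13 (7 of its 49 pairs), Apba2 (6 of 6), Gm21119 (6 of 12), Sfi1 (5 of 17) and Thada (5 of 31). These genes were picked for their counts, and wider pairs were 2.22% of all pairs. Akap13, an anchoring protein for protein kinase A, had coverages of 38 to 761 reads in treatment and 48 to 896 in control at these pairs, with ratios of 1.72 to 2.21. At Thada the coverages were 218 to 1379 reads in treatment and 125 to 891 in control. Ikzf1, which encodes the lymphoid factor Ikaros, had 4 wider pairs of 22, with 92 to 392 reads in treatment and 96 to 386 in control. Id2, an inhibitor of E proteins used by effector cells, was nearest to more narrower pairs than any other gene, 13 of its 40 pairs. It was nearest to 0 wider ones, and narrower pairs were 14.8% of all pairs. These counts hold at any distance. Within 10 kb of Id2 lay 3 pairs, 1 of them narrower, with a median width ratio of 0.913, against 0.911 over all pairs.

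A few wider pairs lay in stretches where the local background differed too. In the 100 kb from 64400001 to 64500000 of chromosome 7, nearest to Apba2, all 5 one-to-one pairs were wider. From 59700001 to 59800000 of the same chromosome, nearest to Snrpn and 233689 to 237675 bp from a gene end, all 4 were. At the Snrpn pairs the background was 26.1 to 27.9 reads in treatment and 14.2 in control. That 14.2 was the lowest background in the control list, which 32.8% of its peaks had. The summits of the Snrpn pairs held 87 to 113 and 44 to 55 reads. At Gm21119 on chromosome 8 the background was 27.9 to 38.1 reads in treatment and 14.2 to 17.3 in control. At Sfi1 it was 57.1 to 171 and 30.6 to 99.3 reads. At these pairs of Snrpn, Gm21119 and Sfi1 the summit and the background were both higher in treatment, whereas at Ikzf1 the background ratio was 0.871 to 1.06. In all, the background was at least 1.5 times higher in treatment in 88 wider pairs, 7.29% (5.96 to 8.90%), in 0.262% (0.171 to 0.400%) of narrower pairs and in 0.958% of all pairs. What part this has in the width was not tested. Among pairs whose higher background was at most 25% above the lower one, 861 were wider, 2.53%, and 2.67% of these lay at gene ends.

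**Figure D5:**
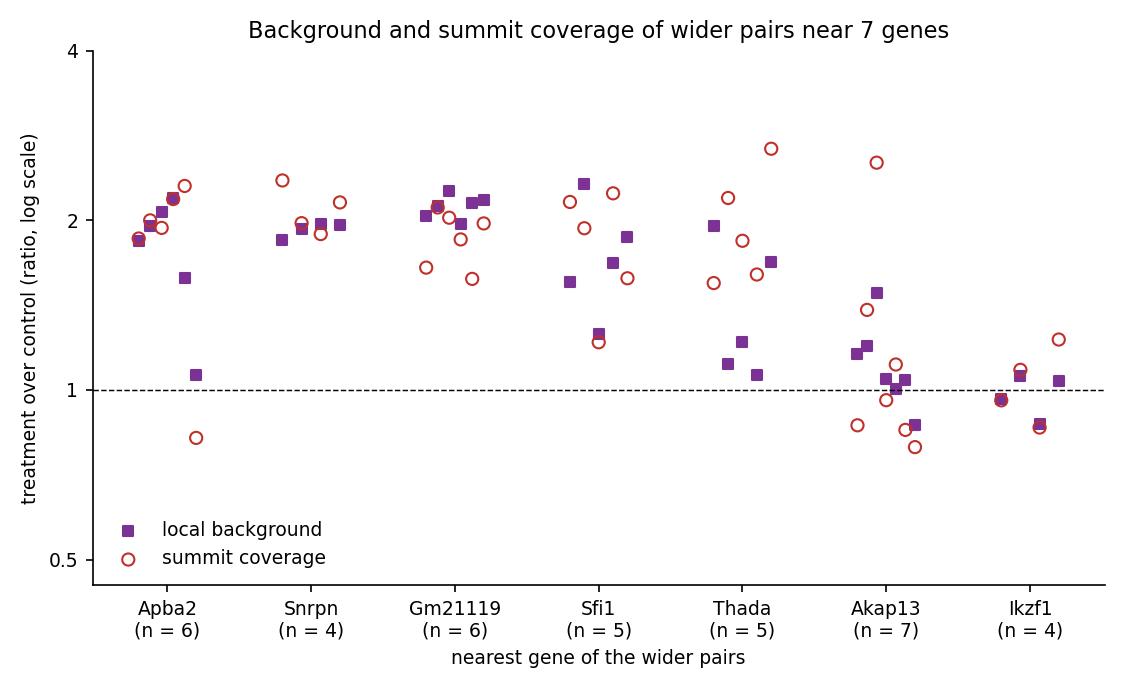
Ratio of treatment to control, on a log scale, of local background (squares) and summit coverage (circles) for each wider pair nearest to 7 genes. Near Apba2, Snrpn, Gm21119 and Sfi1 most background ratios lie well above 1, while near Ikzf1 they lie between 0.871 and 1.06.

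Of the 35 wider pairs at gene ends, 16 had under 100 reads in both libraries. Rac2, the GTPase of blood cells, had 264 reads in treatment and 222 in control, with widths of 350 and 211 bp. Septin9 had 1230 and 1657 reads, with widths of 1381 and 831 bp, and was thus wider and lower in treatment. Nsmce1, a subunit of the SMC5/6 complex, had 820 and 507 reads, with widths of 359 and 221 bp. The highest ratio, 2.97, was at Gm7592, with 1035 and 349 bp and 206 and 217 reads. At Art3 the summit held 48 reads in treatment and 168 in control, though the treatment interval was 622 bp wide and the control interval 374 bp. These 5 were chosen after their values were seen.

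By chromosome, wider pairs made up from 1.37% (0.922 to 2.03%, chromosome 19) to 2.68% (2.12 to 3.39%, chromosome 15) of one-to-one pairs. Narrower pairs ran from 12.7% on chromosome 3 to 16.9% on chromosome 18. The 5 narrower pairs of lowest ratio, 0.110 to 0.165, included pairs near Arhgap33 and Pgrmc2 and in Runx3 and Ctnnd2. The Runx3 interval, in the gene of a CD8 lineage factor (chromosome 4, 135158833 to 135159074), was 242 bp wide in treatment and 1659 bp in control, with 132 and 313 reads.

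Near the limit itself, several pairs had a ratio of exactly 1.5, and of these ties the 3 with the highest control −log10 p lay in Hmbox1 (321 bp in treatment and 214 bp in control), Xrn2 (558 and 372 bp) and Arhgap26 (444 and 296 bp). Those just outside lay in Rnf145 (724 and 483 bp), Me1 (484 and 323 bp) and Adcy7 (436 and 291 bp). The summits of these 6 held 119 to 402 reads in treatment and 129 to 199 reads in control.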

How the data were processed

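ATAC-seq peak lists of 2 mouse CD8+ T cell libraries were used, 1 per group, grouped by their titles. Per the submitters' processing notes, the authors used cutadapt 2.5, Bowtie2 2.3, Picard 2.20 and MACS2, with build mm10. Their settings are not given in the sources used here. Each library has its own list in narrowPeak layout. For each peak the deposited columns give the authors' score, a fold enrichment (the ratio to local background) and −log10 of its p-value and of its q-value. The −log10 q column was at least 2.00 in both lists.

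The lists held 65098 treatment and 85285 control peaks, of which 63351 and 83295 lay on chromosomes 1 to 19. Summit coverage and background in reads were recovered from fold and p-value, and the coverage came out whole, to within 0.001 in −log10 p, for 99.98% of treatment and 99.99% of control peaks. Read totals were not used here, and the lowest background was 15.0 reads in treatment and 14.2 in control. Pairing and recovery were checked on simulated data. The usual width was the median over pairs in up to 40 bands of coverage.

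Pairs were placed by their control summit against a RefSeq gene table of GRCm38.p6. Wilson and order-statistic intervals are at 95% and cover counting error only. The width limits, members and gene lists were chosen with earlier results of these data known. Pairs were named by rule: the 10 of highest ratio, widest treatment interval and highest control fold, the 5 of lowest ratio, the 3 on each side of the limit, up to 4 per list and the 5 genes with most wider pairs. Values of a few genes that the rule names are not reported here. Others are named as examples chosen after their values were seen, among them the gene-level counts. In the list of 21 activation genes, 20 of migration genes and 20 other markers, 20, 19 and 18 matched the table. Python 3.11, NumPy 2.4.6, pandas 2.3.3, SciPy 1.17.1, statsmodels 0.14.6 and matplotlib 3.10.9 were used.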

Additional observations from a re-analysis of the deposited data

How the results depend on the processing

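The gene-end share was lower in wider than in narrower pairs in all 15 other settings, and the share of wider pairs was numerically higher at naive and memory loci than over all pairs in the 10 settings computed for it, 1 of them within its interval (2.61 to 12.6% there, 0.652 to 5.07% over all pairs). The gene-body share of wider pairs stayed between 56.8 and 61.2%.

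Other limits changed the numbers most. With looser ratio limits, the lower one 0.8, there were 2749 wider and 15310 narrower pairs, with gene ends at 12.5% and a median gene distance of 14155 bp in narrower pairs. With limits of 2 and 0.5 there were 354 wider pairs, 1.98% at gene ends, and 2752 narrower pairs at a median of 18865.5 bp. With the control list shortened to the length of the treatment list, 628 pairs were wider, at a median of 15298 bp, and 2.75% (1.18 to 6.27%) were wider at naive and memory loci, an interval that included the 1.27% over all pairs. With summits within 50 bp, 9.12% of narrower pairs lay at gene ends.

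A gene-end window of 500 bp gave 1.91% of wider and 8.08% of narrower pairs at gene ends, with 49.2% of narrower pairs in gene bodies. A window of 2 kb gave 5.14% and 13.7%, with 45.5%. Settings added after seeing the data gave the following. Either end of every gene span put 4.56% of wider and 11.4% of narrower pairs at gene ends. Listed transcription starts alone put 7.52% of narrower pairs at gene ends and 49.5% in gene bodies. That setting also left out chromosome 18, for which no start was listed. A higher background at most 25% above the lower one left 5211 narrower pairs, with 46.7% in gene bodies and a median of 17584.5 bp. With a q-value minimum of 5 or 10 on the −log10 scale, 50% overlap, no limit on summit distance, the ratio divided by its median, or placement by the treatment summit, the numbers of pairs stayed within 1.5 times of those reported. Gene-end shares, gene-body shares and median distances stayed inside the reported intervals. The percent wider among all pairs was 1.90 to 3.295% in these settings. Fewer pairs pass stricter limits by construction, and other causes were not tested.

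No paired analysis was possible because each group holds 1 library. Wider pairs were often shallow: 32.4% of them, 11.9% of narrower and 8.10% of all pairs had fewer than 100 reads in both libraries.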

Other observations

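Chromosome X stands outside the pairs described. Of its 1275 one-to-one pairs, 35 were wider in treatment, 2.75% (95% Wilson interval 1.98 to 3.79%), and 165 were narrower, 12.9% (11.2 to 14.9%). The median width ratio there was 0.933.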
